A study of Homo sapiens with 12 samples.

Results

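Fibronectin and the matricellular proteins were examined in polysome-associated RNA of 3 established triple-negative breast cancer cell lines. The group was a fixed list of 10 genes named by symbol, FN1, SPARC, THBS1, THBS2, TNC, POSTN, SPP1, TGFBI, BGN and VCAN. No rule on measured values set the list, but it was chosen with earlier results of these data known. Of the 10 genes, 9 had counts among the 24559 gene symbols summed from the transcripts. All 9 were among the 16538 genes that passed the filter on low counts. SPP1 was not analysed here. POSTN and BGN were close to that filter, with 0 to 14 expected counts in every library outside 1 group, BT549 OE.

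The question was how the amount of each mRNA on polysomes changed when TRMT112, a cofactor that activates several RNA and protein methyltransferases, was lowered or raised. MDA-MB-231 and SUM159 cells carried either a TRMT112 shRNA (knockdown, KD) or a control (labelled EV, empty vector; the study's methods name a non-silencing shRNA vector) under puromycin selection. BT549 cells carried a TRMT112 open reading frame (overexpression, OE) or an empty vector (EV) under G418 selection. Each of the 6 groups had 2 libraries. SUM159 medium held insulin and hydrocortisone, and BT549 cells were grown in another basal medium with more serum, so line and medium cannot be told apart. All cells met cycloheximide, which holds ribosomes on mRNA, before sucrose gradient separation. The cells were selected after plasmid transfection, and whether the 2 libraries of a group came from separate cultures is not stated, so p-values measure the spread between these libraries only. No unfractionated RNA was analysed here, and ribosome loading and total mRNA amount cannot be told apart in any result below.

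Fibronectin is a large secreted glycoprotein that cells assemble into fibrils and grip through integrins, above all the α5β1 pair. Matricellular proteins are secreted into the same matrix but mainly modulate cell contact and growth factor activity rather than bear load. Thrombospondins, tenascin-C, periostin, SPARC, TGFBI, biglycan and versican are known in breast tumours chiefly as products of the activated stroma, and several are also made by tumour cells of mesenchymal character.

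Fibronectin mRNA is spliced at 2 exons, EDB and EDA, that each encode 1 extra repeat and are included in embryonic, wound and tumour matrix. Both are coding exons of FN1 on the minus strand of chromosome 2 (GRCh38, GENCODE 44). They are shown because the polysome libraries differed in how many FN1 counts fell on transcripts that hold them. The 273-base EDB exon lies at chr2:215392931-215393203 and the 270-base EDA exon at chr2:215380811-215381080.
FN1 EDB exon: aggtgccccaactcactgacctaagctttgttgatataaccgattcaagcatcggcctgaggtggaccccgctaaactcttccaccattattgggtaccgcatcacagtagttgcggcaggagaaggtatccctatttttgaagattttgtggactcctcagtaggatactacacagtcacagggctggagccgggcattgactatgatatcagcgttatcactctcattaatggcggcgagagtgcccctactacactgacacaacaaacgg
FN1 EDA exon: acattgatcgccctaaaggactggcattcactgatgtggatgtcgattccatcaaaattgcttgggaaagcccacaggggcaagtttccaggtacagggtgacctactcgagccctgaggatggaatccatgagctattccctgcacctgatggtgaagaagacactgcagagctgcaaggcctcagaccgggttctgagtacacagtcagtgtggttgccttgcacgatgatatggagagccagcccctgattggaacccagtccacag

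The start regions of FN1 and POSTN are shown because these 2 genes moved furthest down and up, respectively, among the members in BT549 OE cells. Both are on the minus strand, from RefSeq (GRCh38.p14), at chr2:215436074-215436318 and chr13:37598845-37599018, trimmed to bases outside the GENCODE genes, with TATAA in capitals.
FN1 promoter: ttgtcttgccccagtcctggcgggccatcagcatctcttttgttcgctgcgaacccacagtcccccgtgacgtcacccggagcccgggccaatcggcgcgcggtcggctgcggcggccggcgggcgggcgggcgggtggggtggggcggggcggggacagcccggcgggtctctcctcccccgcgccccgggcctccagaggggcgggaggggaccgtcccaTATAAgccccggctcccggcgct
POSTN promoter: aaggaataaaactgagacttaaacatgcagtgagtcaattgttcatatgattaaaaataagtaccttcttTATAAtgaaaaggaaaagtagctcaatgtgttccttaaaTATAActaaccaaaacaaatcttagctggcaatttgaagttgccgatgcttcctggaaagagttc
In the 250 bases before the RefSeq start, searched on both strands, TATAA was found for 5 of the 10 members (FN1, POSTN, THBS2, TNC and VCAN) and in 18.9% of 35116 promoters. GGGCGG, the core of an Sp1 site, was found for 6 members (BGN, FN1, TGFBI, THBS1, TNC and VCAN) and in 42.6% of promoters. GGAATG, bound by TEAD factors, was found for 3 (SPARC, THBS1 and THBS2) and in 11.9%, and TGANTCA, bound by AP-1, for 1 (POSTN) and in 6.57%. These matches describe letters in a window and no binding was measured.

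The libraries held 22954226 to 27434677 expected counts each. TRMT112 fell from 4147 and 3938 to 1764 and 1682 normalized counts in MDA-MB-231 KD, fell from 6332 and 6566 to 3909 and 3699 in SUM159 KD, and rose from 3076 and 3087 to 4286 and 4319 in BT549 OE. Normalized counts are scaled to the mean effective library size (TMM) and compare 1 gene between libraries. The BT549 libraries stood apart by treatment: across 12590 genes the median absolute log2 difference between EV and OE was 0.58, against 0.19 for MDA-MB-231 KD and 0.40 for SUM159 KD, 0.64 to 0.82 between the EV groups of different lines, and 0.06 to 0.08 between libraries of 1 group. KRT8 and KRT18, epithelial keratins, were at 183 to 412 CPM (counts scaled to a common library size) in both KD lines and under 1 CPM in BT549, EV and OE alike. The 3 lines are classed as lacking hormone receptors and ERBB2 amplification: PGR was at 0 to 0.417 CPM and ERBB2 at 57.9 to 143 CPM, and ESR1 was not analysed here. Of 7 fibroblast markers 5 had counts, and their summed level was 1.97 to 2.45 CPM in BT549 EV and 24.0 to 25.7 in BT549 OE. Among them DCN and LUM were at 0 in both EV libraries and at 3.13 to 8.05 CPM in OE. The 4 smooth muscle and pericyte markers summed to 16.1 to 16.4 CPM in EV and 610 to 633 in OE, nearly all of it ACTA2, smooth muscle actin. Leukocyte markers stayed at or under 3.93 CPM in every library and endothelial markers at or under 4.62. Markers moved in the KD lines as well: the fibroblast sum went from 9.33 to 9.47 CPM in MDA-MB-231 EV to 23.5 to 25.5 in KD, nearly all of it PDGFRB, and from 15.0 to 16.0 CPM in SUM159 EV to 5.64 to 5.82 in KD. Of 4 endothelial markers 2 were measured, PECAM1 and CDH5, and they summed to 1.07 to 1.18 CPM in MDA-MB-231 EV and 3.91 to 4.62 in KD, and to 1.01 to 1.05 in SUM159 EV and 3.71 to 4.30 in KD, where CDH5 was at 0 in all SUM159 libraries. These marker levels changed with treatment in each line, but not always in the direction of the members below. In SUM159 KD the fibroblast sum fell and the endothelial sum rose, while the members called there were higher. The part of the markers in the results below was not tested.

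Members mostly rose where they changed (edgeR quasi-likelihood test, Benjamini-Hochberg adjusted p under 0.05). In MDA-MB-231 KD 4 of 9 members were higher (FN1, SPARC, THBS1 and TGFBI), against 21.2% of all genes tested, and 0 were lower, against 16.5%. In SUM159 KD 7 of 9 were higher, against 28.6% of all genes, and 0 lower, against 31.4%; 1 of the 7, TGFBI, lost its call in several alternatives (log2 fold change 0.07), which leaves 6 others. In BT549 OE 7 of 9 were higher, against 35.6% of all genes, and 2, FN1 and TNC, were lower, against 35.0%. The median log2 fold change of the members was 0.21, 0.61 and 1.94 in the 3 comparisons, and that of all genes was 0.00, 0.00 and 0.02. With scaling by library size alone, 36.7% of the called genes in MDA-MB-231 were higher in place of 56.2%, and no member changed direction.

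**Figure D1:**
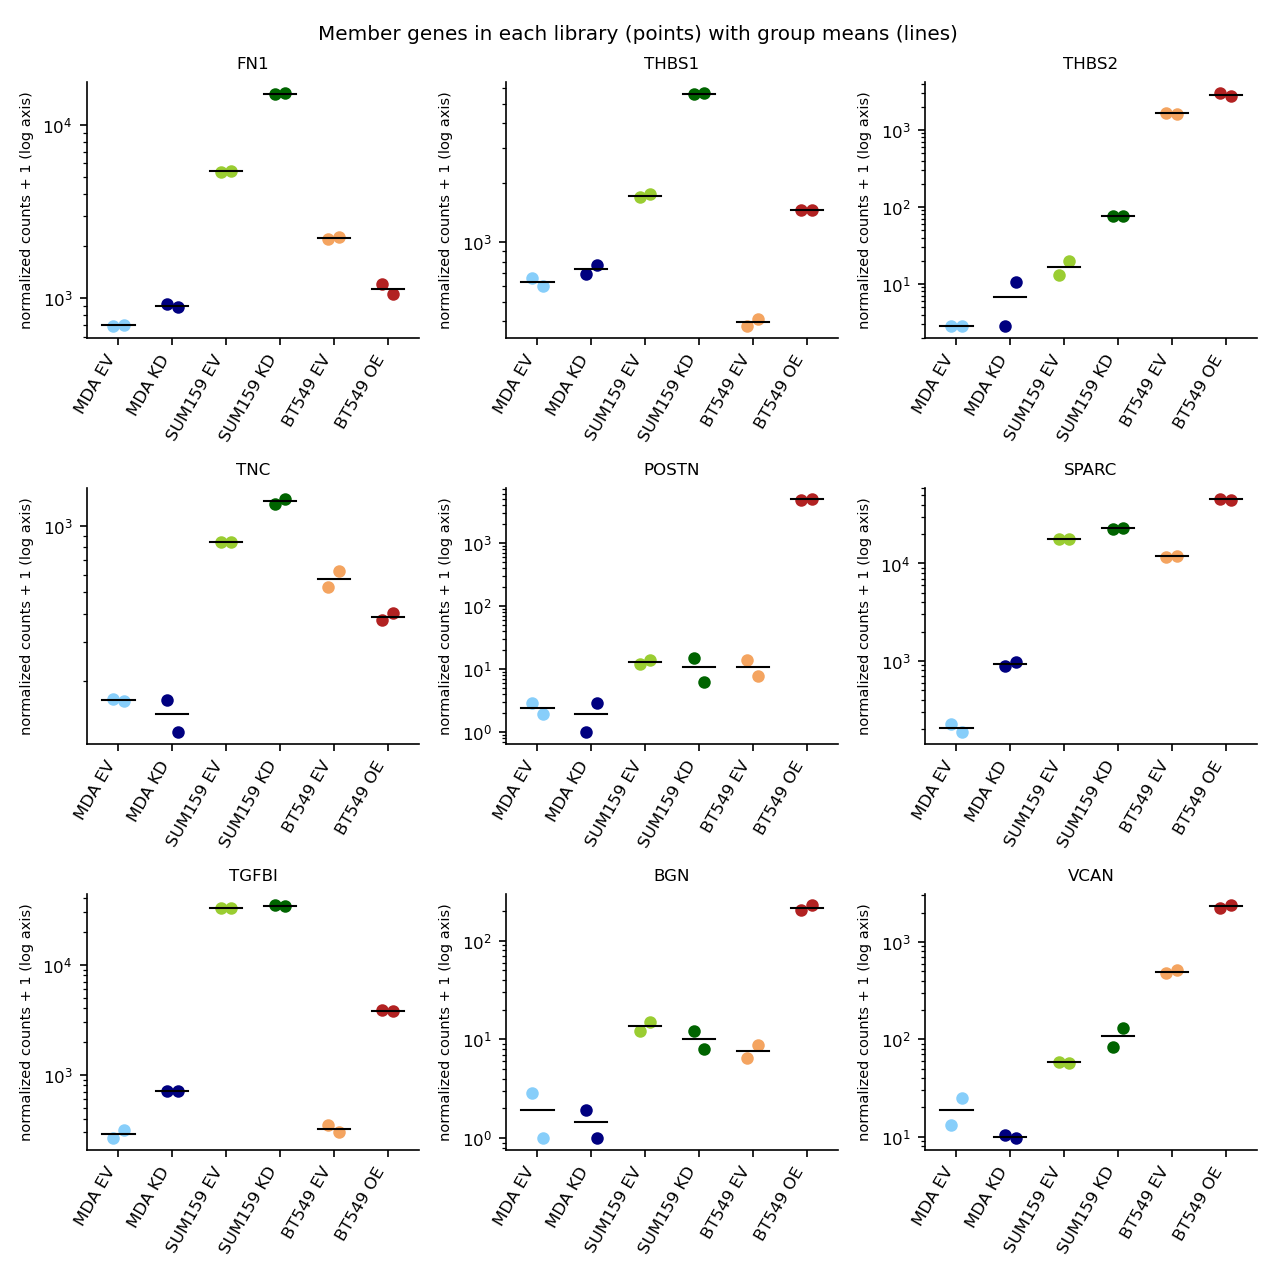
Normalized counts plus 1 (log axis, scaled separately for each gene) of the 9 members in the 12 libraries; points are libraries, lines are means of the 2 libraries of a group, and MDA stands for MDA-MB-231. FN1 and THBS1 are highest in SUM159 KD, while POSTN, BGN, VCAN, THBS2 and SPARC are highest in BT549 OE.

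FN1 rose on polysomes in both KD lines and fell in BT549 OE. In MDA-MB-231 it was at 690 and 705 normalized counts in EV and 923 and 892 in KD, a log2 fold change of 0.38 (SE 0.06, adjusted p = 1.56e-05). In SUM159 it was at 5345 and 5452 in EV and 15064.5 and 15247 in KD, a log2 fold change of 1.49 (SE 0.04, adjusted p = 7.29e-20). The groups did not overlap in either line, and the SUM159 step was 2.81-fold against 1.30-fold. In BT549 the 2 EV libraries held 2192 and 2246 and the 2 OE libraries 1216 and 1059, a log2 fold change of -0.96 (SE 0.05, adjusted p = 2.66e-14). Both OE libraries lay well under both EV libraries, at a fitted ratio of 0.513. Per length, FN1 had 7.72 ± 0.51 TPM (counts divided by transcript length and scaled to the same total in every library; SD, n = 2) in MDA-MB-231 EV, 59.9 ± 0.49 in SUM159 EV and 19.3 ± 0.77 in BT549 EV, and reached 147 ± 2.62 in SUM159 KD.

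The balance of spliced FN1 forms differed between the lines. Among transcripts that span the EDA exon (11, of which 5 hold it), those with the exon took 68.3% and 72.5% of counts in MDA-MB-231 EV and 55.4% and 55.4% in KD. In SUM159 the EV libraries had shares of 33.3% and 25.0% and the KD libraries of 27.2% and 27.0%, and in BT549 48.4% and 53.7% in EV and 53.4% and 51.3% in OE. So the 2 groups overlapped in SUM159 and BT549 and did not in MDA-MB-231. Of the 10 transcripts that span the EDB exon 3 hold it. They took 17.3% and 12.6% in MDA-MB-231 EV and 9.30% and 5.10% in KD, against 32.0% and 29.0% in SUM159 EV and 37.1% and 37.0% in SUM159 KD. The 2 BT549 OE libraries, at 15.9% and 5.71%, were far apart from each other. SUM159 cells therefore had the largest EDB share and the smallest EDA share among the lines. These shares come from how the authors' counting divided reads between transcripts that overlap almost wholly, and were not tested.

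**Figure D2:**
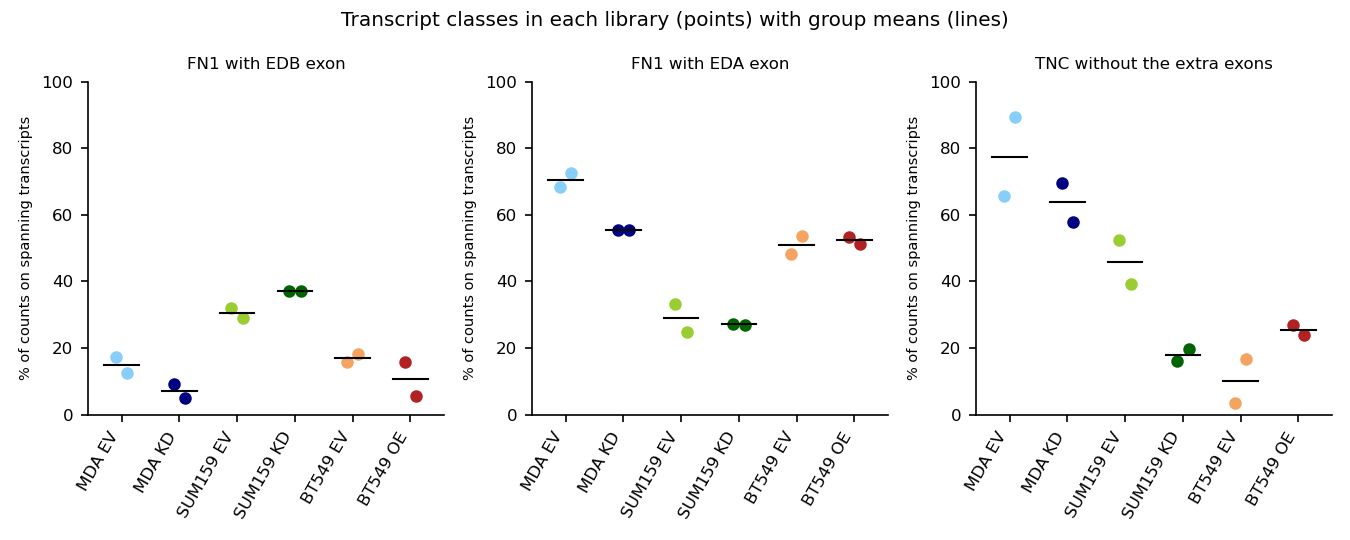
Percent of counts on FN1 transcripts with the EDB exon, FN1 transcripts with the EDA exon, and TNC transcripts without 7 extra exons, each among the transcripts spanning those exons; points are libraries and lines are means of 2 libraries. The EDA share is above 50% in MDA-MB-231 and below 35% in SUM159, and the TNC shares of the MDA-MB-231 EV libraries lie apart, at 65.5% and 89.3%.

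Thrombospondins are trimeric or pentameric glycoproteins that bind CD47, CD36 and integrins; THBS1 also activates latent TGF-beta and, like THBS2, inhibits angiogenesis. THBS1 rose in SUM159 KD from 1693 and 1749 to 5598 and 5654 normalized counts, a log2 fold change of 1.71 (SE 0.05, adjusted p = 4.17e-19). In BT549 it rose from 377 and 410 in EV to 1455 and 1458 in OE, a log2 fold change of 1.89 (SE 0.07, adjusted p = 1.77e-17). The MDA-MB-231 libraries were much closer, with 657 and 605 in EV and 689 and 769 in KD. There the log2 fold change was 0.21 (SE 0.06, adjusted p = 0.0132), and the call was lost without EV replicate 2 (0.15, adjusted p = 0.156), without KD replicate 2 (0.13, adjusted p = 0.224) and with scaling by library size alone (0.12, adjusted p = 0.162). Between 99.5% and 100.0% of THBS1 counts fell on 1 transcript, THBS1-201, in every library.

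THBS2 was chiefly a BT549 transcript. It stood at 1656 and 1632 normalized counts in BT549 EV and 3008 and 2731 in OE, a log2 fold change of 0.80 (SE 0.07, adjusted p = 1.58e-10). In SUM159 it rose from 12.1 and 19.1 in EV to 75.6 and 75.2 in KD, a log2 fold change of 2.26 (SE 0.27, adjusted p = 1.15e-07), which still left it at 0.958 TPM. MDA-MB-231 libraries held 2 and 2 expected counts in EV and 2 and 10 in KD. The EV counts are within the floor of 3 counts, so no fold is given (adjusted p = 0.142). Without KD replicate 1, the library with 2 counts, the adjusted p was 0.0249.

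Tenascin-C and periostin are matrix proteins of healing wounds, both bound by αv integrins, and periostin also binds fibronectin and tenascin-C themselves. TNC rose in SUM159 KD, from 839 and 846 to 1253 and 1314 normalized counts, a log2 fold change of 0.61 (SE 0.08, adjusted p = 6.74e-07). It fell in BT549 OE from 527 and 627 to 374 and 403, a log2 fold change of -0.57 (SE 0.10, adjusted p = 2.76e-05). In MDA-MB-231 the values were 166 and 161 in EV and 164 and 117 in KD, so the groups overlapped (log2 fold change -0.21, SE 0.14, adjusted p = 0.264). Without KD replicate 1 the log2 fold change was -0.48 and passed the threshold (adjusted p = 0.0308). Tested as its single most abundant transcript in place of the sum, TNC had log2 fold changes of the opposite sign in SUM159 (-0.75, adjusted p = 0.512) and BT549 (0.69, adjusted p = 0.482). The 7 extra exons of TNC lie within chr9:115046410-115064919 and encode fibronectin type III repeats. Of 7 transcripts that span them 1, TNC-209, lacks them all, and it is also the single most abundant transcript tested above. It took 52.3% and 39.1% of counts in SUM159 EV and 16.3% and 19.7% in KD. In BT549 it took 3.48% and 16.6% in EV and 26.8% and 24.0% in OE. The share therefore fell in SUM159 KD and was higher in BT549 OE without overlap between libraries, but was not tested.

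POSTN had the largest change of any member. BT549 EV held 13.1 and 6.64 normalized counts (12 and 6 expected counts) and BT549 OE 4793 and 4905, a log2 fold change of 8.92 (SE 0.14, adjusted p = 2.42e-24) or a fitted 483-fold. Over the alternatives on summed genes POSTN had values of 8.51 to 9.48, a span wider than the SE. In TPM it went from 0.209 ± 0.097 to 101 ± 2.64 (SD, n = 2), above 92.5% of all symbols in OE. In the other lines it was near the floor, with 11, 13, 14 and 6 expected counts in SUM159 EV 1, EV 2, KD 1 and KD 2, and 2, 1, 0 and 2 in MDA-MB-231. It passed the test in neither KD comparison (adjusted p = 0.522 in SUM159 and 0.820 in MDA-MB-231), and no fold is given for MDA-MB-231. The OE counts were divided among several coding transcripts, with POSTN-209 at 41.5% and 45.2%, POSTN-201 at 29.7% and 27.6% and POSTN-202 at 17.6% and 16.0%.

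SPARC and TGFBI, both collagen-binding proteins, were the most abundant members per length in SUM159. SPARC, or osteonectin, binds collagen and calcium and alters cell spreading. It rose in all 3 comparisons. In MDA-MB-231 it went from 223 and 185 normalized counts in EV to 891 and 985 in KD, a log2 fold change of 2.20 (SE 0.07, adjusted p = 2.11e-16). In SUM159 it was already at 17806.5 and 17901 in EV and reached 22663 and 23262 in KD, a log2 fold change of 0.36 (SE 0.03, adjusted p = 3.25e-10). BT549 went from 11790 and 11816 in EV to 45668 and 45115.5 in OE, a log2 fold change of 1.94 (SE 0.03). The libraries of the groups did not overlap in any line. In BT549 OE SPARC was at 1264 ± 19.2 TPM (SD, n = 2), rank 110 of 24559 symbols. With the length of its main transcript in place of each transcript's own, it was at 896 ± 7.53 TPM there. Retained-intron transcripts took 29.4% and 40.1% of SPARC counts in MDA-MB-231 EV and 22.3% and 24.4% in KD, 27.6% and 26.5% in BT549 EV and 23.2% and 23.3% in OE, and 29.9% to 33.8% in the 4 SUM159 libraries. The share was thus lower in the treated libraries of the 2 lines with the larger SPARC steps, and was not tested.

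TGFBI, a TGF-beta-induced secreted protein with fasciclin domains like those of periostin, rose in MDA-MB-231 KD from 264 and 311 to 716 and 709 normalized counts, a log2 fold change of 1.31 (SE 0.07, adjusted p = 9.45e-13). In BT549 OE it rose from 346 and 299 to 3862 and 3773, a log2 fold change of 3.56 (SE 0.06, adjusted p = 2.28e-24) or 11.8-fold. SUM159 was at a high level throughout, with 33059 and 32451 in EV and 34747 and 34111 in KD. That step was 1.05-fold (log2 fold change 0.07, SE 0.03, adjusted p = 0.0456). It lost its call without EV replicate 1, EV replicate 2 or KD replicate 1 (log2 fold change 0.05 to 0.08), with library size alone (0.04) and with no filter (0.06). In TPM the SUM159 means ran the other way, 914 ± 20.8 in EV and 892 ± 4.39 in KD (SD, n = 2), so no direction is given for TGFBI in SUM159.

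**Figure D3:**
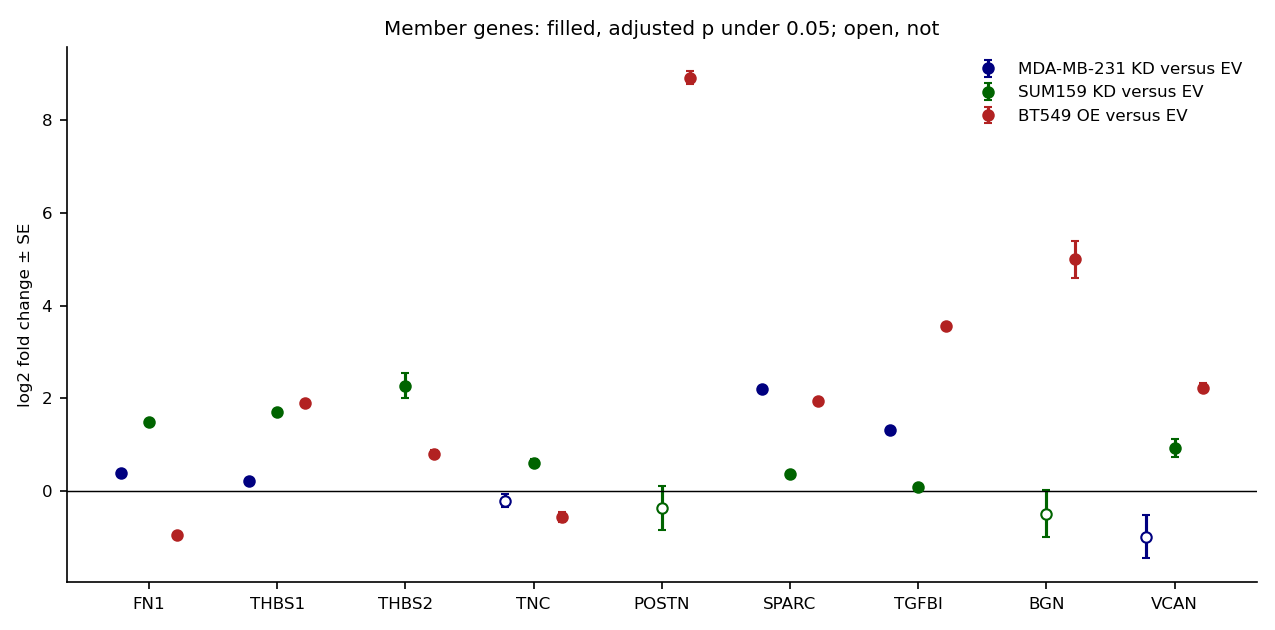
Log2 fold change of each member (points) in MDA-MB-231 KD, SUM159 KD and BT549 OE, each against the EV libraries of the same line. Bars are the approximate SE derived from the test statistic. Filled points had an adjusted p under 0.05 and open points did not. POSTN in BT549 OE reaches 8.92, while FN1 lies above 0 in both KD lines and below 0 in BT549 OE; THBS2, POSTN and BGN in MDA-MB-231 are left out because their EV counts were 0 to 2.

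Biglycan is a small leucine-rich proteoglycan, and versican a large proteoglycan that binds hyaluronan and carries chondroitin sulfate chains. BGN was near the floor in all but 1 group. It had 5 and 7 expected counts in BT549 EV and 183 and 201 in OE, which as normalized counts was 5.47 and 7.75 against 203 and 228 (log2 fold change 5.00, SE 0.40, adjusted p = 1.04e-10). SUM159 libraries held 11 and 14 expected counts in EV and 11 and 8 in KD (adjusted p = 0.420), and MDA-MB-231 libraries 2, 0, 1 and 0, for which no fold is given.

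VCAN rose in BT549 OE from 477 and 509 to 2245 and 2382 normalized counts, a log2 fold change of 2.23 (SE 0.09, adjusted p = 5.67e-16). It also rose in SUM159 KD, from 57.5 and 56.3 to 82.7 and 131, a log2 fold change of 0.92 (SE 0.20, adjusted p = 0.000366), where the 2 KD libraries differed from each other. In MDA-MB-231 the values were 12.2 and 23.7 in EV and 9.37 and 8.67 in KD; the groups did not overlap but the test was not passed (log2 fold change -0.99, SE 0.46, adjusted p = 0.0976). It was passed with DESeq2 (adjusted p = 0.0472) and without EV replicate 1 (adjusted p = 0.0361). The versican forms differ by a 2961-base exon at chr5:83519349-83522309 and a 5262-base exon at chr5:83537007-83542268, which encode the chondroitin sulfate attachment regions. The V1 form, with the longer exon only, took 88.0% and 90.1% of the counts on spanning transcripts in BT549 EV and 95.1% and 93.9% in OE. The V0 form, with both exons, took 6.35% and 9.85% in EV and 1.05% and 1.89% in OE. V1 was the main form in SUM159 as well, at 83.0% to 96.6% over its 4 libraries. In MDA-MB-231 V2, the form with the shorter exon only, took 96.0% to 100% of these counts. Each MDA-MB-231 library held only 4.51 to 20.7 counts on spanning transcripts, too few to read a main form from.

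The KD effect differed between MDA-MB-231 and SUM159 for 6 of the 9 members, against 50.9% of all genes. The difference (MDA-MB-231 minus SUM159) was positive for SPARC (log2 1.84, SE 0.08, adjusted p = 3.63e-15) and TGFBI (1.23, SE 0.08, adjusted p = 2.73e-12), the members that rose more in MDA-MB-231. It was negative for FN1 (-1.11, SE 0.07), THBS1 (-1.50, SE 0.08), TNC (-0.82, SE 0.16) and VCAN (-1.92, SE 0.50), with adjusted p of 4.01e-12, 2.29e-13, 0.000184 and 0.00256. The VCAN difference rested on MDA-MB-231 EV replicate 2, without which it was -1.35 (adjusted p = 0.0941). TRMT112 itself fell further in MDA-MB-231 (0.426 of EV) than in SUM159 (0.589 of EV), and its part in these differences was not tested.

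The lines also started from different levels. In the EV libraries all 9 members were higher in SUM159 than in MDA-MB-231. Of the 16538 genes tested, 6491 were called higher in SUM159 and 6021 lower, or 75.7% in either direction. For THBS2, POSTN and BGN the MDA-MB-231 EV libraries held only 0 to 2 expected counts. BT549 EV differed from MDA-MB-231 EV in 8 of 9 members (79.5% of all genes), 7 of them higher and THBS1 lower, and from SUM159 EV in 7 of 9 (78.4% of all genes), with THBS2 and VCAN higher and FN1, SPARC, THBS1, TNC and TGFBI lower. These 3 comparisons share their EV libraries. With scaling by library size alone the median of all genes shifted to -0.34 for BT549 against MDA-MB-231, with 38.4% of called genes higher in place of 49.1%, and to -0.27 against SUM159. Under that scaling TGFBI, which did not pass the test, went from 0.16 to -0.15 for BT549 against MDA-MB-231, and the other members kept their direction in these comparisons. TGFBI had EV means of 288 ± 33.3 normalized counts in MDA-MB-231, 322 ± 33.3 in BT549 and 32755 ± 429 in SUM159 (SD, n = 2). MDA-MB-231 and BT549 overlapped for TGFBI (adjusted p = 0.0793), and SUM159 was at 114 times the MDA-MB-231 level. SPARC was 87.5-fold higher in SUM159 than in MDA-MB-231 and 1.51-fold higher in SUM159 than in BT549. For POSTN and BGN all EV libraries held 0 to 14 expected counts, and their EV calls against MDA-MB-231 changed when 1 BT549 or MDA-MB-231 library was left out (POSTN 2.16, adjusted p = 0.0552, without BT549 EV replicate 1; BGN 1.75, adjusted p = 0.103, without MDA-MB-231 EV replicate 2, and 2.42, adjusted p = 0.0580, without BT549 EV replicate 2). TGFBI gained its call for BT549 against MDA-MB-231 without MDA-MB-231 EV replicate 2 (0.29, adjusted p = 0.00902) or BT549 EV replicate 2 (0.27, adjusted p = 0.0154).

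**Figure D4:**
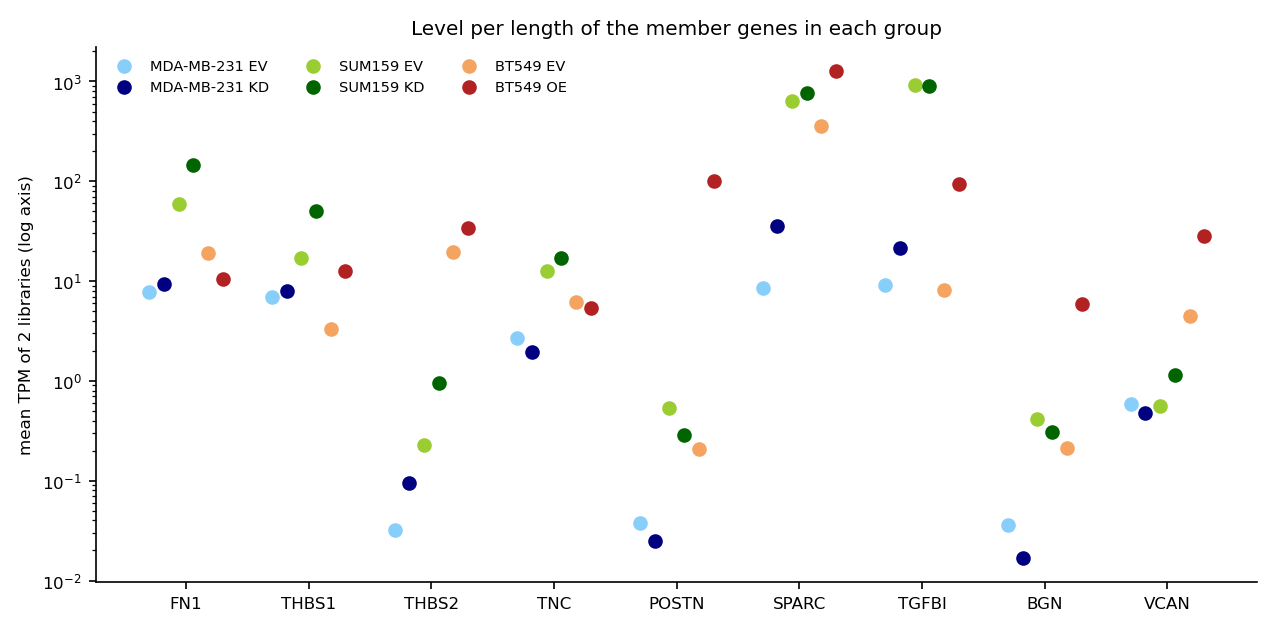
Mean level per length (TPM, log axis) of the 9 members in the 6 groups, each point the mean of 2 libraries. SPARC and TGFBI are highest in SUM159, at 645 to 914 TPM, except that SPARC reaches 1264 TPM in BT549 OE, while POSTN, BGN and THBS2 lie under 1 TPM in MDA-MB-231 and SUM159.

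Across the 6 groups FN1 ran in the order SUM159 KD, SUM159 EV, BT549 EV, BT549 OE, MDA-MB-231 KD and MDA-MB-231 EV, and no neighbours in that order overlapped. SPARC, THBS1 and VCAN also had no overlapping neighbours. How many of all genes were separated in this way was not computed, so the orders are description only. For THBS2 and TNC the 2 MDA-MB-231 groups overlapped at the bottom of the order. For POSTN the groups SUM159 EV, BT549 EV and SUM159 KD overlapped in sequence below BT549 OE, as did the 2 MDA-MB-231 groups below them. For TGFBI the overlapping neighbours were BT549 EV and MDA-MB-231 EV, at the bottom, and for BGN they were SUM159 KD with BT549 EV and the 2 MDA-MB-231 groups.

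Of 23 listed integrins and other receptors of these proteins 18 were tested. In MDA-MB-231 KD 8 of the 18 were higher and 1 lower, where 21.2% and 16.5% of all genes were. In SUM159 KD 8 were higher and 7 lower (28.6% and 31.4% of all genes), and in BT549 OE 8 higher and 9 lower (35.6% and 35.0% of all genes). The list medians were 0.09, 0.02 and -0.25. ITGA9, at or under 5.78 normalized counts outside BT549 OE, passed the filter on low counts through that group alone. Its direction there was set by the filter. ITGA5, the fibronectin-specific integrin chain, fell in BT549 OE from 5437 and 5339 to 503 and 520 normalized counts, a log2 fold change of -3.40 (SE 0.05), the same direction as FN1. It rose with FN1 in MDA-MB-231 KD (0.48, SE 0.04) and SUM159 KD (0.19, SE 0.03). Its partner ITGB1 rose in BT549 OE by 0.31 (SE 0.03) and in MDA-MB-231 KD by 0.29 (SE 0.03), and fell in SUM159 KD by 0.09 on the log2 scale (SE 0.03). ITGAV, the chain shared by the vitronectin-type receptors, rose in BT549 OE only by this test (0.57, SE 0.07), with values of -0.07 and -0.08 that missed the threshold in the KD lines. ITGA3, a chain that pairs with ITGB1, had the largest fall on the list, from 6909 and 7046 in BT549 EV to 220 and 220 in OE (log2 fold change -4.99, SE 0.05). CD47, the thrombospondin receptor, fell in BT549 OE (-1.46, SE 0.03) while THBS1 and THBS2 rose there, and it rose in MDA-MB-231 KD (0.36, SE 0.04) and SUM159 KD (0.13, SE 0.04). CD44, which binds hyaluronan, rose in MDA-MB-231 KD (0.37, SE 0.03) and fell in SUM159 KD (-0.46, SE 0.03) and BT549 OE (-0.56, SE 0.03). Among the syndecans SDC4, a fibronectin co-receptor, rose in all 3 (0.13, 0.31 and 0.81), and SDC1 fell in SUM159 KD from 7153 and 6838 to 669 and 652 (-3.40, SE 0.04). EGFR, to which tenascin-C repeats bind weakly, fell in all 3 (-0.56, -1.29 and -0.14).

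**Figure D5:**
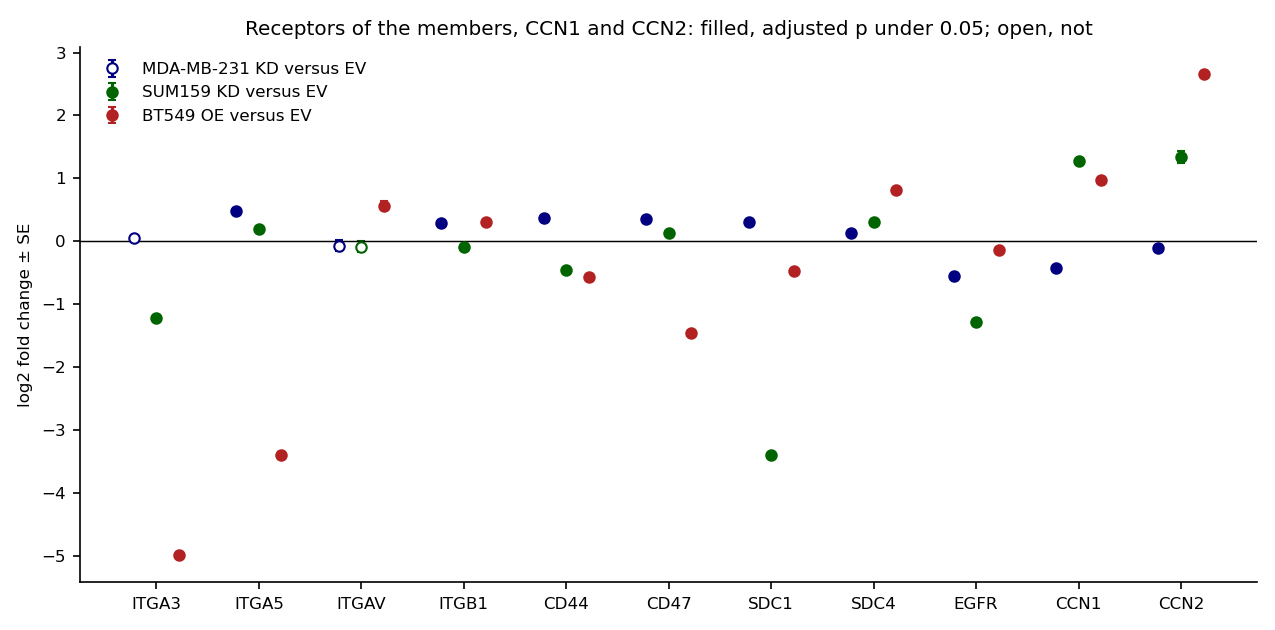
Log2 fold change (points) of receptors and of CCN1 and CCN2 in MDA-MB-231 KD, SUM159 KD and BT549 OE against EV. Bars, often within the point, are the approximate SE derived from the test statistic. Filled points had an adjusted p under 0.05. ITGA3 and ITGA5 fall to -4.99 and -3.40 in BT549 OE, and CCN1 lies below 0 in MDA-MB-231 and above 0 in the other lines.

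Other matricellular genes rose for the most part in BT549 OE. Of 19 tested, 1 was higher and 7 lower in MDA-MB-231 KD, 8 higher and 3 lower in SUM159 KD, and 14 higher and 2 lower in BT549 OE, with list medians of -0.39, 0.27 and 1.95. Of all genes 21.2% were higher and 16.5% lower in MDA-MB-231 KD, 28.6% and 31.4% in SUM159 KD, and 35.6% and 35.0% in BT549 OE. COMP, SPARCL1, SPOCK3 and AEBP1 were at or under 8.22 normalized counts in every library outside BT549 OE. They passed the filter on low counts through that group alone, so their direction there was set by the filter. The BT549 OE count and median include them. The KD effect was lower in MDA-MB-231 than in SUM159 for 8 of the 19 and higher for 1, against 50.9% of all genes called in either direction. CCN1, an integrin-binding secreted protein, fell in MDA-MB-231 KD from 37031.5 and 36400 to 27169 and 27238 normalized counts (-0.43, SE 0.03) and rose in SUM159 KD from 2784 and 2654 to 6508 and 6671 (1.28, SE 0.03) and in BT549 OE (0.97, SE 0.03). CCN2, or connective tissue growth factor, followed with -0.11 (SE 0.03), 1.33 (SE 0.09) and 2.66 (SE 0.04). FSTL1, a SPARC-family glycoprotein, rose in all 3, by 0.48, 0.89 and 1.34 (SE 0.02 each), and was at 81539 and 82558 in BT549 OE.

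Of 22 listed small leucine-rich and hyaluronan-binding proteoglycan genes, 10 were tested. Among these, LUM was at or under 1.01 normalized counts outside BT549 OE and at 79.7 and 74.7 there. It passed the filter on low counts through that group alone, so its direction there was set by the filter. In MDA-MB-231 KD 1 was higher and 1 lower, in SUM159 KD 2 were higher and 5 lower, and in BT549 OE 6 were higher and 1 lower; the shares of all genes higher and lower were 21.2% and 16.5%, 28.6% and 31.4%, and 35.6% and 35.0%. HAPLN3, a link protein that fixes versican-type proteoglycans to hyaluronan, was at 104 and 97.4 normalized counts in BT549 EV and 6875 and 6760 in OE (log2 fold change 6.08, SE 0.08). HAS2, a hyaluronan synthase, rose in SUM159 KD (2.31, SE 0.40), but from only 7.06 and 4.02 normalized counts to 29.2 and 26.8. It also rose in BT549 OE (2.38, SE 0.13) and fell in MDA-MB-231 KD (-0.84, SE 0.23). TNFAIP6, which binds hyaluronan and versican, fell in SUM159 KD (adjusted p = 5.32e-08) from 117 and 111 to 2.02 and 2.59 normalized counts, within the floor of 3 counts, so no fold is given.

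Of 23 enzymes tested that cleave or crosslink the members or build their chains, 11 were higher and 1 lower in MDA-MB-231 KD, 12 higher and 6 lower in SUM159 KD, and 13 higher and 7 lower in BT549 OE. The shares of all genes were 21.2% and 16.5%, 28.6% and 31.4%, and 35.6% and 35.0%. MMP9, at or under 4.82 normalized counts outside BT549 OE, had counts above the filter in that group alone. Its direction there was set by the filter. TGM2, which crosslinks fibronectin, rose in MDA-MB-231 KD (0.84, SE 0.04) and fell in SUM159 KD (-1.18, SE 0.06) and BT549 OE (-0.50, SE 0.05). MMP14, a membrane protease, rose in SUM159 KD (1.99, SE 0.06), and MMP2 in BT549 OE (2.33, SE 0.06). CHST11, a chondroitin sulfotransferase, fell in SUM159 KD (-3.07, SE 0.12) and BT549 OE (-2.28, SE 0.08) and rose in MDA-MB-231 KD (0.56, SE 0.08).

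The TGF-beta pathway, known to induce FN1, TGFBI, POSTN and VCAN, had 19 genes tested, of which 9 were higher and 1 lower in MDA-MB-231 KD, 8 higher and 5 lower in SUM159 KD, and 9 higher and 9 lower in BT549 OE. The shares of all genes higher and lower were 21.2% and 16.5%, 28.6% and 31.4%, and 35.6% and 35.0%. TGFB2, a ligand, rose in SUM159 KD from 297 and 277 to 925 and 1008 normalized counts (1.75, SE 0.07). TGFBR2, the type II receptor, fell in BT549 OE from 2815 and 2834 to 895 and 875 (-1.67, SE 0.05). PMEPA1, an early target, rose in all 3 (0.41, 0.56 and 1.90).

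By Pearson correlation of log2 CPM over the 12 libraries, which fall into 3 lines and share depth, the genes most like POSTN were HAPSTR1 (r = 0.988), MXRA8 (0.988) and LINGO1 (0.986). Those most like SPARC were PCBP3 (0.987), SIRPA (0.986) and CRISPLD2 (0.986), and those most like TGFBI were GPC1 (0.996), DLG5 (0.994) and IMP3 (0.991). FN1 was closest to ORMDL2 (0.994), THBS1 to ARPIN (0.990), THBS2 to RHOBTB2 (0.993), TNC to HMGN3 (0.992) and VCAN to BMI1 (0.995). No member was among the 3 genes most like another, and BGN, whose mean was under 50 counts, was not compared.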

How the data were processed

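Pooled polysome fractions gave 12 RNA libraries, and the labels place 2 in each of 6 groups. Per the study's methods and the submitters' processing notes, the authors used Trimmomatic for trimming, HISAT2 for alignment (GRCh38) and SAMtools for removal of duplicates; the counting tool and annotation are not given in the sources used here. The labels describe a poly(A) library kit and the methods an rRNA-depleted stranded kit, and this was not resolved. The authors deposited expected counts per Ensembl transcript, not normalized. In the MDA-MB-231 and SUM159 columns 5.08% of rows carried a question mark in place of a value, so the unit of these columns was recorded as other, and per the file headers they hold the same measure as the rest; marks were read as 0.

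Transcripts were matched to GENCODE 44 (99.2% to 99.4% of counts), summed per symbol and rounded. Genes were filtered with filterByExpr, scaled by TMM and fitted in 1 edgeR 4.0.16 quasi-likelihood model (R 4.3.3) of all 12 libraries with 6 residual degrees of freedom and 7 contrasts, with Benjamini-Hochberg adjustment over 16538 genes. SE was taken as the absolute log2 fold change divided by the square root of the F statistic of the quasi-likelihood test. It is an approximation and can be too small where a group has few counts. TPM used GENCODE lengths. Alternatives were RLE or library-size scaling, DESeq2 1.42.0, other filters, a replicate block, separate fits, marked transcripts left out, single transcripts, and each library left out. Libraries of a group differed by more than counting noise (chi-square per degree of freedom 2.08 to 3.21). The code was tested on simulated data. The members and gene lists were chosen with earlier results of these data known. Named were the members, TRMT112, 8 fixed receptor and CCN genes, and up to 2 called genes with the smallest p for each list and main contrast.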

Additional observations from a re-analysis of the deposited data

Results flagged for a closer look

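The KD effect differed between MDA-MB-231 and SUM159 for 6 members by the interaction contrast of the edgeR model. FN1 (log2 difference -1.11), THBS1 (-1.50), TNC (-0.82) and VCAN (-1.92) had the higher KD effect in SUM159, and SPARC (1.84) and TGFBI (1.23) in MDA-MB-231. SPARC and TGFBI had EV levels in SUM159 that were 87.5-fold and 114-fold those in MDA-MB-231. The difference for VCAN lost its call without MDA-MB-231 EV replicate 2, and the others kept theirs with each library left out.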

How the results depend on the processing

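The number of members called stayed within 3 to 6 in MDA-MB-231 KD, 6 to 7 in SUM159 KD, 8 to 9 in BT549 OE, 5 to 6 for the KD difference, 8 to 9 for SUM159 and 6 to 8 for BT549 against MDA-MB-231 in EV, and 7 for BT549 against SUM159, over the alternatives on summed genes (6 without MDA-MB-231 KD replicate 1, where THBS2 and TNC passed), and BGN alone was missing from BT549 OE when a mean of 50 counts was required. Tested as their most abundant transcript alone, 3, 3, 7, 3, 5, 5 and 7 members were called in these 7 comparisons, in the same order. The share called among all 64066 transcripts tested was not computed, so these counts have no background beside them. Of 843 recomputed member fold changes, 791 kept their direction and call and 22 changed sign. Of these, 5 belonged to a called member, all from the single-transcript test: TNC in SUM159 KD (-0.75), in BT549 OE (0.69), in the KD difference (0.29) and in BT549 against MDA-MB-231 EV (-1.09), and POSTN in BT549 against MDA-MB-231 EV (-2.26); none of these 5 passed the threshold, and the cause was not tested. The others had not passed the test: POSTN (0.41) and BGN (0.67) in the KD difference as single transcripts, TGFBI in BT549 against MDA-MB-231 EV by library size (-0.15), and 8 results that crossed 0 with a library left out, some of them for more than 1 library. These ran in MDA-MB-231 KD from -0.48 to 0.010 for TNC, -3.60 to 0.44 for POSTN and -3.07 to 2.26 for BGN, in the KD difference from -2.24 to 0.044 for THBS2, -3.22 to 0.81 for POSTN and -2.56 to 2.76 for BGN, and for POSTN from -1.20 to 0.22 in SUM159 KD and -0.85 to 0.12 in BT549 against SUM159 EV. Same-numbered libraries did not deviate together (correlations 0.02, -0.02 and 0.00). These values cannot show whether such libraries were handled together, since a shared batch of little effect would give the same. With the replicate block the calls among members stayed at 4, 7 and 9 in the 3 treatment comparisons. Having 2 libraries in each group, and counts of 0 to 14 for POSTN and BGN outside BT549 OE, limits what could be detected there. When the length of the main transcript replaced each transcript's own, 24 of 54 TPM values moved by at least the SD of their 2 libraries. When counts were divided by transcript length, 34 of 56 transcript shares moved by at least that much.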
